A study of Mus musculus with 12 samples.

Results

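The genes described here are 8 enzymes with which the liver makes, activates or inactivates steroids: Cyp17a1, Hsd3b2, Hsd3b3, Hsd3b5, Hsd11b1, Hsd17b2, Srd5a1 and Akr1c6. They were found by gene symbol in the platform annotation of the arrays. Of the 8 genes, 7 had a probe set that names them alone, out of 18820 genes with such a probe set, and each of the 7 had exactly 1. Srd5a1, a steroid 5-alpha-reductase, was not analysed here because the annotation used gives its symbol to no probe set. The list follows a shared function, but it was chosen with earlier results of these arrays known. The differences it was selected on are the genotype differences of Hsd3b3 in liver and of Cyp17a1 in hepatocytes, both lower in the knockout, so these are given below as values with no test.

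RNA was measured on 12 whole-transcript arrays, 3 in each of 4 groups: whole liver, and primary hepatocytes (the metabolic cells of the liver, separated from the tissue), each from WT and from JNKΔhepa mice. All animals were untreated C57BL/6 males aged 7 to 8 weeks, kept on standard chow. WT mice were littermates with a floxed Jnk1 and an intact Jnk2 (Jnk1f/f Jnk2+/+). JNKΔhepa mice lacked Jnk1 in hepatocytes, through a Cre recombinase driven by the albumin promoter and alpha-fetoprotein enhancer elements, and lacked Jnk2 in every cell (Jnk2-/-), other liver cells included. The removed part of Jnk1 is not named in the labels, which give the same mouse numbers to livers and hepatocytes, so that 6 mice, 3 of each genotype, gave both samples.

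Steroid hormones reach the liver from the adrenal and the gonads, and the liver reactivates, oxidises or reduces them before they are conjugated and excreted. The Hsd3b genes are a cluster of related copies. Hsd3b2 and Hsd3b3 encode dehydrogenase and isomerase enzymes that turn pregnenolone-type steroids into progesterone-type ones, whereas Hsd3b5 encodes a reductase that inactivates androgens. Hsd3b5 is known as a gene of male mouse liver that follows the pulsatile pattern of growth hormone. Cyp17a1 is the 17-alpha-hydroxylase and lyase of the androgen and cortisol branch, Hsd11b1 regenerates active glucocorticoid, Hsd17b2 oxidises estradiol and testosterone to weaker steroids, and Akr1c6 is an aldo-keto reductase acting on 17-ketosteroids.

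The Hsd3b genes with values here lie side by side on chromosome 3 in the order Hsd3b5, Hsd3b2 and Hsd3b3, and they gave the widest differences between the genotypes together with Cyp17a1. Their promoters are shown because these neighbouring copies differed in direction. The sequences are the 250 bases before a transcript start of each gene, 5′ to 3′, from RefSeq (GRCm38.p6, minus strand), at chr3:98645535-98645784 for Hsd3b5, chr3:98762411-98762660 for Hsd3b3 and chr3:98724544-98724793 for Hsd3b2. Capitals mark runs of at least 10 identical aligned bases shared by the Hsd3b5 and Hsd3b3 windows.
Hsd3b5: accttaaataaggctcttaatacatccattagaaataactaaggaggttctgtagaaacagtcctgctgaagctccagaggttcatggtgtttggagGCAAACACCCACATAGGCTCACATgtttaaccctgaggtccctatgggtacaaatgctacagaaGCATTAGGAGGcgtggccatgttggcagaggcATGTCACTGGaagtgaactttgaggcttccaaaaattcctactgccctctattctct
Hsd3b3: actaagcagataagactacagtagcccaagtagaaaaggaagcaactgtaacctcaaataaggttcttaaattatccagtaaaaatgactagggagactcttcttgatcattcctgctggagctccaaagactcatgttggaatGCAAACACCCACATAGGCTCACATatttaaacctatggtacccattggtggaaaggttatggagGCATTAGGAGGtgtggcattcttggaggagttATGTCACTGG
Hsd3b2: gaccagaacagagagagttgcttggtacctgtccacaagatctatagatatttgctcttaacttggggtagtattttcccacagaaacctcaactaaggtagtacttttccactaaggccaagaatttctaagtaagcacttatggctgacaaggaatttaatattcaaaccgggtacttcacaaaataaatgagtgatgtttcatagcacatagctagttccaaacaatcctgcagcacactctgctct

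The Hsd3b5 and Hsd3b3 windows shared 3 such runs, 45 bases in all and up to 24 bases long, and 76.5% of their aligned bases were identical. The Hsd3b2 window shared 0 such runs with that of Hsd3b5, and 65.0% of the aligned bases were identical. Those shares leave out gaps. Over the whole alignment, gaps counted, the windows of Hsd3b3 and Hsd3b2 were 51.0% and 48.6% identical to that of Hsd3b5, which is closer together. The RefSeq promoter table lists 2 windows for Hsd3b3, which were 99.6% identical, and the one more like Hsd3b5 is printed. Both lie inside the span of Hsd3b3 in the RefSeq gene table, downstream of its outermost end, whereas the Hsd3b5 and Hsd3b2 windows adjoin the ends of their genes. In all, 6 of the 8 genes had a window, 7 windows together. The STAT motif TTCNNNGAA, searched on both strands, was in 0 of these 7 windows and in 7.02% of the 32851 windows of that length in the table, and the AP-1 motif TGANTCA was in 0 of 7 and in 6.75%.

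Values below are log2 as deposited, so that a difference of 1 is a doubling, and a difference was called where limma's Benjamini-Hochberg adjusted p over all 18820 genes was under 0.05. Within each group the arrays correlated at r of at least 0.9865. Jnk2 (Mapk9) read 8.59 to 8.69 in WT livers and 2.33 to 3.02 in JNKΔhepa livers, below the median of each JNKΔhepa array, so the difference is a lower bound: at least 59.9-fold in liver and, likewise, at least 44.4-fold in hepatocytes. Jnk1 (Mapk8) fell by 0.40 in liver (SE 0.08, limma adjusted p = 0.027, not called after leaving out any single mouse) and by 0.61 in hepatocytes (SE 0.08, limma adjusted p = 0.00183). All 9 measured hepatocyte identity genes were above the array median everywhere, with list means of 12.01 to 12.28. The median over all probe sets of an array was between 4.09 and 4.12 for livers but between 3.22 and 3.28 for hepatocytes, so separate normalisation of the tissues appears likely.

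Most markers of Kupffer, endothelial and stellate cells had lower means in JNKΔhepa than in WT hepatocyte samples, though most arrays overlapped. All JNKΔhepa arrays were below all WT arrays for 3 of 11, 3 of 10 and 4 of 10 of them, beside 7.32% of all genes. Over all genes, limma called 0.84% in hepatocytes and 12.6% had an unadjusted p under 0.05. Of 11 Kupffer cell and macrophage markers, 11 had lower means in JNKΔhepa hepatocytes, 1 was called (C1qb, a complement component), the median change was -0.77, and the list means were 5.58 to 6.28 in WT and 5.08 to 5.61 in JNKΔhepa arrays. C1qb fell by 1.08 (SE 0.196, limma adjusted p = 0.0225), a call lost without WT replicate 1 or 3 or JNKΔhepa replicate 2 or 3 (limma adjusted p up to 0.155). All 10 endothelial markers had lower means too, with 0 called by limma and 10 at an unadjusted p under 0.05, a median change of -0.55, and list means of 6.56 to 6.89 in WT and 6.10 to 6.55 in JNKΔhepa arrays. The endothelial marker with the smallest p was Cdh5, the cadherin of endothelial junctions, at -0.60 in hepatocytes (SE 0.132, limma adjusted p = 0.0568) and -0.04 in liver. Of 10 stellate cell markers, 9 had lower means and 1, the matrix gene Ecm1, was called (-0.71, SE 0.112, limma adjusted p = 0.01, lost without WT replicate 1 or 3 or JNKΔhepa replicate 2 or 3, at up to 0.0942), and the list means were 4.70 to 5.01 in WT and 4.30 to 4.73 in JNKΔhepa arrays. In liver limma called 0 of these markers, and 2 of them, both stellate, had an unadjusted p under 0.05, beside 0.925% and 12.5% of all genes. The part of these shifts in the hepatocyte results below was not tested.

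A second pattern in the hepatocyte arrays crossed the genotypes. The glucocorticoid target Fkbp5 read 7.84 in WT replicate 2, 7.62 in JNKΔhepa replicate 2 and 7.68 in JNKΔhepa replicate 3, against 6.09 to 6.43 on the other three hepatocyte arrays. Mt2, a metallothionein, split the same arrays, at 11.37 to 11.57 against 9.15 to 9.37. Over all 13 listed glucocorticoid targets, the array means were 9.42 to 9.59 against 8.84 to 9.11. Those means include Fkbp5 and Mt2, by which the arrays were split. Their separation was therefore partly fixed in advance and does not show a pattern of the whole list. Not every target followed. Sgk1, also on the list, read lower on the arrays where Fkbp5 was high, at 5.46 to 5.64 against 5.80 to 6.41, and Tat did not separate them. Fkbp5, Mt2, Sgk1 and Tat were singled out after their values were seen, and the part of this pattern in the results below was not tested.

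Among the 7 enzymes, the genotype difference was widest for Hsd3b5, Hsd3b3 and Cyp17a1, which were lower in JNKΔhepa samples of at least 1 tissue, and for Hsd3b2, which was higher in JNKΔhepa hepatocytes. Hsd11b1, Hsd17b2 and Akr1c6 differed by at most 0.15 between genotypes in either tissue. Leaving out the difference the list was selected on in each tissue, 0 of 6 enzymes were called by limma in liver, with 1 at an unadjusted p under 0.05, beside 0.925% and 12.5% of all genes tested. In hepatocytes 1 of 6 was called, beside 0.84%. Since the list was drawn up with these contrasts known, nothing is read from those counts. The median change over the enzymes was 0.07 in liver and -0.01 in hepatocytes, beside 0.02 and 0.00 over all genes.

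**Figure D1:**
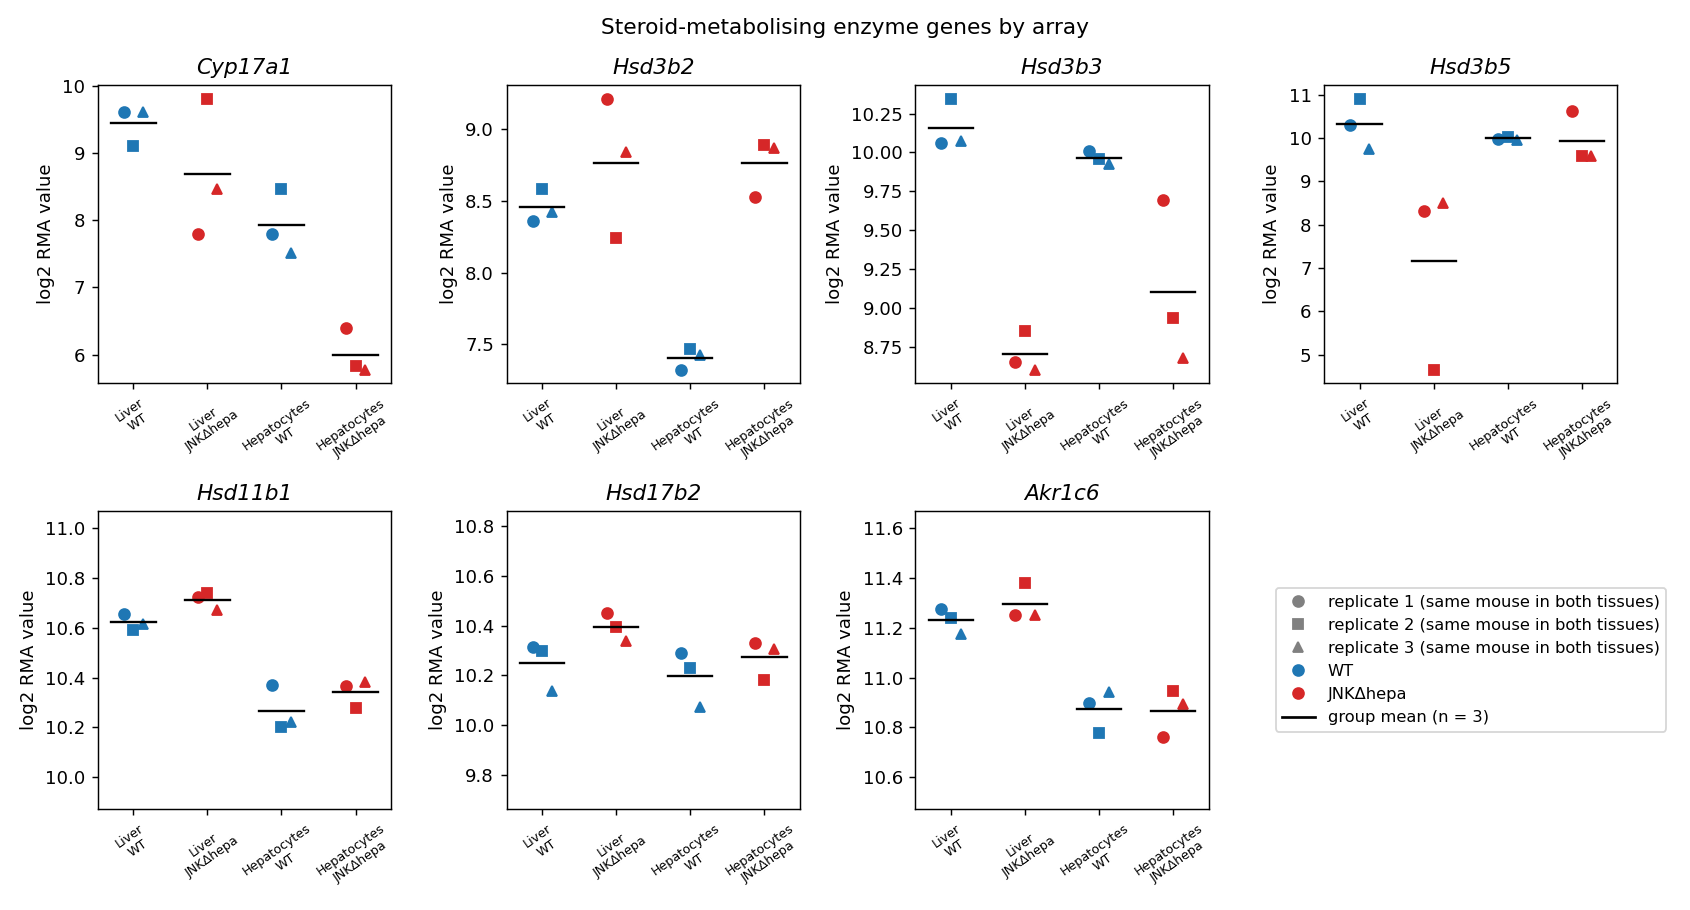
Log2 RMA value of each enzyme gene (y axis, a separate scale per gene) on each array of the 4 groups (x axis). Points are arrays, with shape giving the replicate (circle, square and triangle for replicates 1, 2 and 3) and colour the genotype. Per the labels, a replicate is the same mouse in both tissues. Lines are means of 3 arrays. Hsd3b5 in liver and Cyp17a1 in hepatocytes lie lower in JNKΔhepa, Hsd3b2 in hepatocytes lies higher, and JNKΔhepa liver replicate 2 stands apart for Hsd3b5 at 4.65.

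Hsd3b5 had the largest difference in liver and none beyond the spread in hepatocytes. WT livers read 10.31, 10.91 and 9.74 in replicates 1, 2 and 3, and JNKΔhepa livers read 8.33, 4.65 and 8.50. All 3 JNKΔhepa livers were below all 3 WT livers, as for 7.57% of all genes, and replicate 2 was far below the other two. The mean was 10.32 ± 0.59 (SD, n = 3) in WT and 7.16 ± 2.17 (SD, n = 3) in JNKΔhepa livers, 8.96-fold lower, which did not pass the threshold (log2 difference -3.16, SE 0.756, limma adjusted p = 0.0785). Without JNKΔhepa replicate 2 the difference was -1.91 and passed (limma adjusted p = 0.0332). Over the fits that each left out 1 mouse it ranged from -3.83 to -1.91, with a limma adjusted p of up to 0.256. In whole liver, fewer cells of a type and less RNA per cell cannot be told apart.

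In hepatocytes Hsd3b5 read 9.98, 10.03 and 9.96 in WT against 10.61, 9.58 and 9.59 in JNKΔhepa. These groups overlapped, with a difference of -0.06 (95% interval -1.70 to 1.57, limma adjusted p = 0.989). That interval rests on a spread pooled over all 4 groups, the livers included. The SD was 0.04 in WT and 0.60 in JNKΔhepa hepatocytes, against 2.175 in JNKΔhepa livers, so the width is not that of the hepatocyte arrays alone. By the labels' mouse numbers, the mouse whose liver read 4.65 gave hepatocytes at 9.58. That pairing rests on the labels alone. Over all genes, deviations from group means correlated at -0.013 to 0.098 within a labelled mouse. Between mice of the same replicate number they correlated at -0.12 to 0.112. The genotype difference in hepatocytes minus that in liver was 3.10 (SE 1.07), which did not pass over all genes (limma adjusted p = 0.579).

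A second reading of the region came from 2 probe sets that list Hsd3b5 together with Hsd3b4 and Gm10681 and hold identical values on all 12 arrays. They were assigned to no gene. They read 6.10, 6.13 and 5.76 in WT livers and 4.66, 4.64 and 5.09 in JNKΔhepa livers, so these arrays did not overlap either, and JNKΔhepa replicate 2 was not set apart from the others. In hepatocytes they read 4.45, 4.37 and 4.20 in WT against 4.66, 4.04 and 3.99 in JNKΔhepa, which overlapped. Probe sets of related copies can take up each other's transcripts, and the Hsd3b values are uncertain to that extent.

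Hsd3b3 was lower in JNKΔhepa samples of both tissues. WT livers read 10.06, 10.35 and 10.07 and JNKΔhepa livers 8.65, 8.85 and 8.60, a gap of over 1 between the nearest arrays. The mean fell by 1.46 on the log2 scale (SE 0.196), 2.75-fold, which is given with no test. WT hepatocytes read 10.01, 9.95 and 9.93 and JNKΔhepa hepatocytes 9.70, 8.93 and 8.68, so the JNKΔhepa arrays were all lower here, as for 7.32% of all genes, and JNKΔhepa replicate 1 lay nearest to WT. That difference was -0.86, 1.82-fold lower (SE 0.196), and did not pass (limma adjusted p = 0.066). Without JNKΔhepa replicate 1 it was -1.16 and passed (limma adjusted p = 0.00219), but it did not pass without any other single mouse, at -0.65 (limma adjusted p = 0.264) without JNKΔhepa replicate 3, or in a fit of the 6 hepatocyte arrays (0.208). The genotype difference in hepatocytes minus that in liver was 0.60 (SE 0.277), with no test because it contains the liver difference.

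Hsd3b2 went the other way in hepatocytes. WT hepatocytes read 7.32, 7.47 and 7.43 and JNKΔhepa hepatocytes 8.53, 8.89 and 8.87, with every JNKΔhepa array above every WT array, as for 7.36% of all genes. The mean rose from 7.41 ± 0.08 to 8.76 ± 0.20 (SD, n = 3 each), 2.56-fold (log2 1.35, SE 0.189, limma adjusted p = 0.00434). Without WT replicate 1 the difference was 1.31 and just missed the threshold (limma adjusted p = 0.052). WT livers read 8.36, 8.59 and 8.42 and JNKΔhepa livers 9.21, 8.24 and 8.84. These overlapped, because JNKΔhepa replicate 2 read below all WT livers, and the difference of 0.31 did not pass (SE 0.189, limma adjusted p = 0.558, range 0.09 to 0.57 when each mouse was left out). The hepatocyte effect minus the liver effect was 1.04 (SE 0.267, limma adjusted p = 0.398).

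Cyp17a1 was lower in JNKΔhepa hepatocytes and varied widely in JNKΔhepa livers. WT hepatocytes read 7.79, 8.47 and 7.51 and JNKΔhepa hepatocytes 6.39, 5.83 and 5.77. The highest JNKΔhepa array was more than 1 below the lowest WT array, and the mean fell by 1.93 on the log2 scale (SE 0.402), 3.81-fold, given with no test. WT livers read 9.61, 9.10 and 9.62 and JNKΔhepa livers 7.80, 9.82 and 8.47. JNKΔhepa replicate 2, the liver with the lowest Hsd3b5, had the highest Cyp17a1 of the 6 livers, and the other two were below all WT livers. The liver difference of -0.75 did not pass (SE 0.402, limma adjusted p = 0.487), and ranged from -1.31 without JNKΔhepa replicate 2 to -0.30 without JNKΔhepa replicate 1. The hepatocyte difference minus the liver difference was -1.18 (SE 0.568), with no test because it contains the hepatocyte difference.

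Hsd11b1, Hsd17b2 and Akr1c6 varied least of the enzymes, and none was called by limma in either tissue. Hsd11b1 read 10.66, 10.59 and 10.62 in WT livers and 10.72, 10.74 and 10.67 in JNKΔhepa livers. The JNKΔhepa livers were all higher, as for 12.9% of all genes, by 0.09 (95% interval -0.08 to 0.26, limma adjusted p = 0.718). In WT hepatocytes it read 10.37, 10.20 and 10.22, which overlapped the 10.37, 10.28 and 10.38 of JNKΔhepa hepatocytes (difference 0.08, 95% interval -0.09 to 0.24, limma adjusted p = 0.761).

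Hsd17b2 read 10.31, 10.30 and 10.14 in WT livers and 10.45, 10.40 and 10.34 in JNKΔhepa livers. These too did not overlap, with a difference of 0.15 (95% interval -0.05 to 0.34, limma adjusted p = 0.555). Its hepatocyte values, 10.29, 10.23 and 10.07 in WT against 10.33, 10.18 and 10.31 in JNKΔhepa, overlapped (difference 0.07, 95% interval -0.12 to 0.27, limma adjusted p = 0.809). Akr1c6 read 11.28, 11.24 and 11.18 in WT against 11.25, 11.38 and 11.25 in JNKΔhepa livers (difference 0.07, 95% interval -0.12 to 0.25, limma adjusted p = 0.836). In hepatocytes it read 10.90, 10.78 and 10.94 in WT against 10.76, 10.95 and 10.89 in JNKΔhepa, again overlapping (difference -0.01, 95% interval -0.19 to 0.18, limma adjusted p = 0.992). The intervals of these 3 genes bound a change in either tissue to at most 0.34 on the log2 scale, narrower than those of the Hsd3b genes and Cyp17a1.

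**Figure D2:**
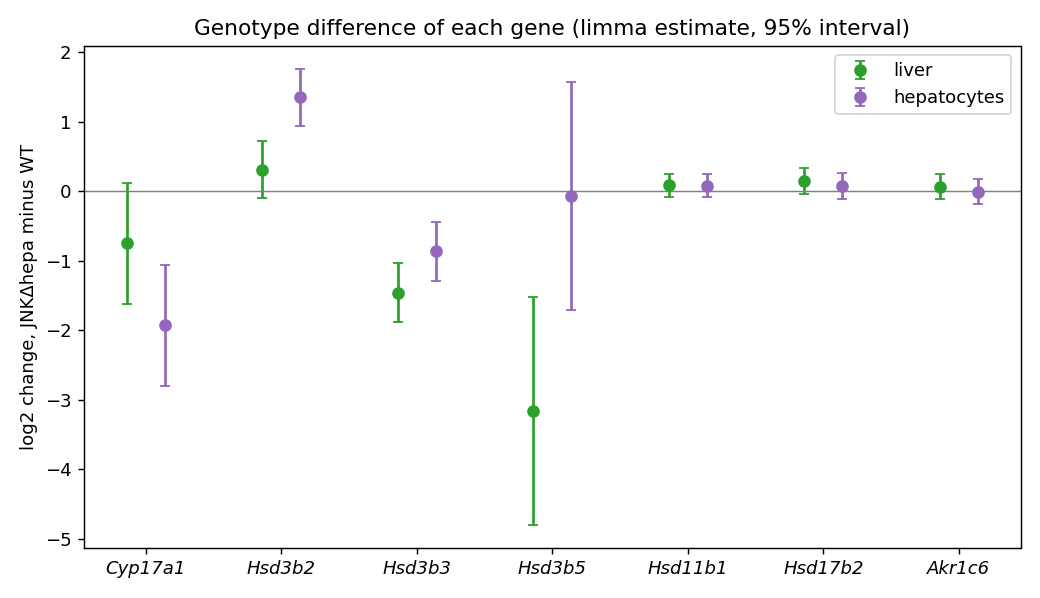
Log2 change from WT to JNKΔhepa (y axis) of each enzyme gene (x axis) in liver (green) and hepatocytes (purple). Points are limma estimates from 3 arrays a group. Bars are 95% intervals from a spread pooled over the 4 groups. They run from -1.70 to 1.57 for Hsd3b5 in hepatocytes and from -0.08 to 0.26 for Hsd11b1 in liver. The Hsd3b2 point in hepatocytes is at 1.35.

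The interaction of genotype and tissue could be tested for 5 enzymes and was called for 0 of 5 by limma, beside 0.0106% of all genes (2 of 18820). At an unadjusted p under 0.05, 2 of 5 passed, Hsd3b2 and Hsd3b5, beside 7.22% of all genes. A genotype difference seen in 1 tissue is therefore not shown to be absent from the other.

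The levels of the enzymes in the 2 tissues depend on the scale. On the deposited values the median of all genes was lower in hepatocytes by 0.58 in WT and 0.60 in JNKΔhepa mice and limma called 86.2% and 86.5% of all genes, so the tissue calls of the enzymes are not read. After quantile normalising the 12 arrays together, limma called 28.4% and 29.9%. On that common scale Hsd17b2 was higher in hepatocytes of both genotypes, by 0.39 in WT and 0.30 in JNKΔhepa (limma adjusted p = 0.00569 and 0.022), whereas on the deposited scale it was -0.05 and -0.12. Cyp17a1 was lower in hepatocytes on both scales: deposited -1.52 and common -0.97 in WT, and deposited -2.70 and common -2.06 in JNKΔhepa. These are given with no test because the hepatocytes of both genotypes entered the selection.

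In JNKΔhepa mice Hsd3b5 was higher in hepatocytes than in liver on both scales, by 2.77 and, on the common scale, 3.34 (limma adjusted p = 0.00705), while in WT mice its difference was -0.33 and 0.11. Paired by the labels' mouse numbers, on the deposited values, the JNKΔhepa hepatocytes exceeded the livers by 2.29, 4.93 and 1.09. Hsd3b3 in JNKΔhepa mice was higher in hepatocytes by 0.40 as deposited and by 0.95 on the common scale, likewise with no test. Hsd3b2 differed by -1.05 and, on the common scale, -0.44 in WT mice, and by 0.00 and 0.55 in JNKΔhepa mice, neither common-scale value passing (limma adjusted p = 0.117 and 0.0513). Hsd11b1 and Akr1c6 differed by -0.13 to 0.06 on the common scale.

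Other genes of steroid metabolism were compared by list. Limma called none of 4 measured Hsd3b genes and relatives (Hsd3b1, Hsd3b6, Hsd3b7 and the sterol enzyme Nsdhl), 14 Hsd17b genes and related dehydrogenases (among them Hsdl1, Hsdl2, Rdh9 and Rdh16), 11 aldo-keto and steroid reductases, 12 genes of the steroidogenic core, 11 conjugating enzymes or 13 steroid hydroxylases in either tissue, beside 0.925% of all genes called in liver and 0.84% in hepatocytes. At an unadjusted p under 0.05 the counts in liver were 2, 6, 2, 3, 1 and 3, and in hepatocytes 1, 1, 2, 1, 0 and 2, beside 12.5% and 12.6% of all genes, so that in liver the share was above that of all genes for 5 of these 6 lists and highest for the first and second. The list medians lay between -0.10 and 0.09 in liver and between -0.06 and 0.06 in hepatocytes.

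The gene with the smallest p in each of these lists is given next. Hsd3b7, the Hsd3b enzyme of bile acid synthesis, read 9.77 to 10.24 in WT and 10.42 to 10.58 in JNKΔhepa livers (0.45, SE 0.108, limma adjusted p = 0.08) and differed by 0.05 in hepatocytes. Akr1c18, which inactivates progesterone, read 3.77 to 4.39 in WT hepatocytes and 2.56 to 3.22 in JNKΔhepa hepatocytes. It was below the array median in each of the latter, so the size is not exact. The estimate was 2.35-fold lower and did not pass (limma adjusted p = 0.0556). The difference passed when the genes below the array median in all groups were left out. Fdx1, the ferredoxin that passes electrons to mitochondrial steroid hydroxylases, differed by 0.30 in liver and 0.40 in hepatocytes with no overlap in either tissue (limma adjusted p = 0.24 and 0.116). The glucuronosyltransferase Ugt2b37 differed by -0.998 in liver (limma adjusted p = 0.112) and -0.01 in hepatocytes. Rdh16, a retinol and steroid dehydrogenase, and Cyp2c38, a cytochrome P450, had opposite signs in the tissues, 0.29 and -0.22 for Rdh16 and 0.55 and -0.50 for Cyp2c38, with no call by limma (interaction adjusted p = 0.517 and 0.448).

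Hsd3b5 belongs to the genes that male mouse liver expresses above female liver, and 16 others of that kind were measured. Their median change was -0.37 in liver, beside 0.02 over all genes, and 15 of 16 were below 0. This list too was chosen with earlier results of these data known. Its genes were read on the same few mice and are not replicates of the genotype. The counts of genes here and in the next paragraph are therefore a description. Limma called 1 of them, C6, a terminal complement component, and 9 had an unadjusted p under 0.05, beside 0.925% and 12.5% of all genes. For 5 of them all JNKΔhepa livers were below all WT livers, as for 7.57% of all genes. C6 read 10.44, 10.73 and 9.40 in WT against 8.58, 7.88 and 8.84 in JNKΔhepa livers, and fell by 1.76 (SE 0.374, limma adjusted p = 0.0487), a call lost without WT replicate 1 or 2 or without any one JNKΔhepa mouse (limma adjusted p up to 0.225). In hepatocytes the median of the list was 0.05 and 12 of 16 were above 0. Limma called 0 of 16 there, with 1 at an unadjusted p under 0.05, beside 0.84% and 12.6% of all genes.

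The order of the livers for these genes was much like that for Hsd3b5. JNKΔhepa replicate 2 was the lowest of the 6 livers for 12 of 16 genes and WT replicate 2 the highest for 13 of 16. The list means were 9.82, 9.99 and 9.25 in WT against 9.21, 8.76 and 9.33 in JNKΔhepa livers, so the groups overlapped through WT replicate 3. The hepatocyte effect exceeded the liver effect for 16 of 16 genes, with 0 called by limma and 5 at an unadjusted p under 0.05, beside 0.0106% and 7.22% of all genes.

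**Figure D3:**
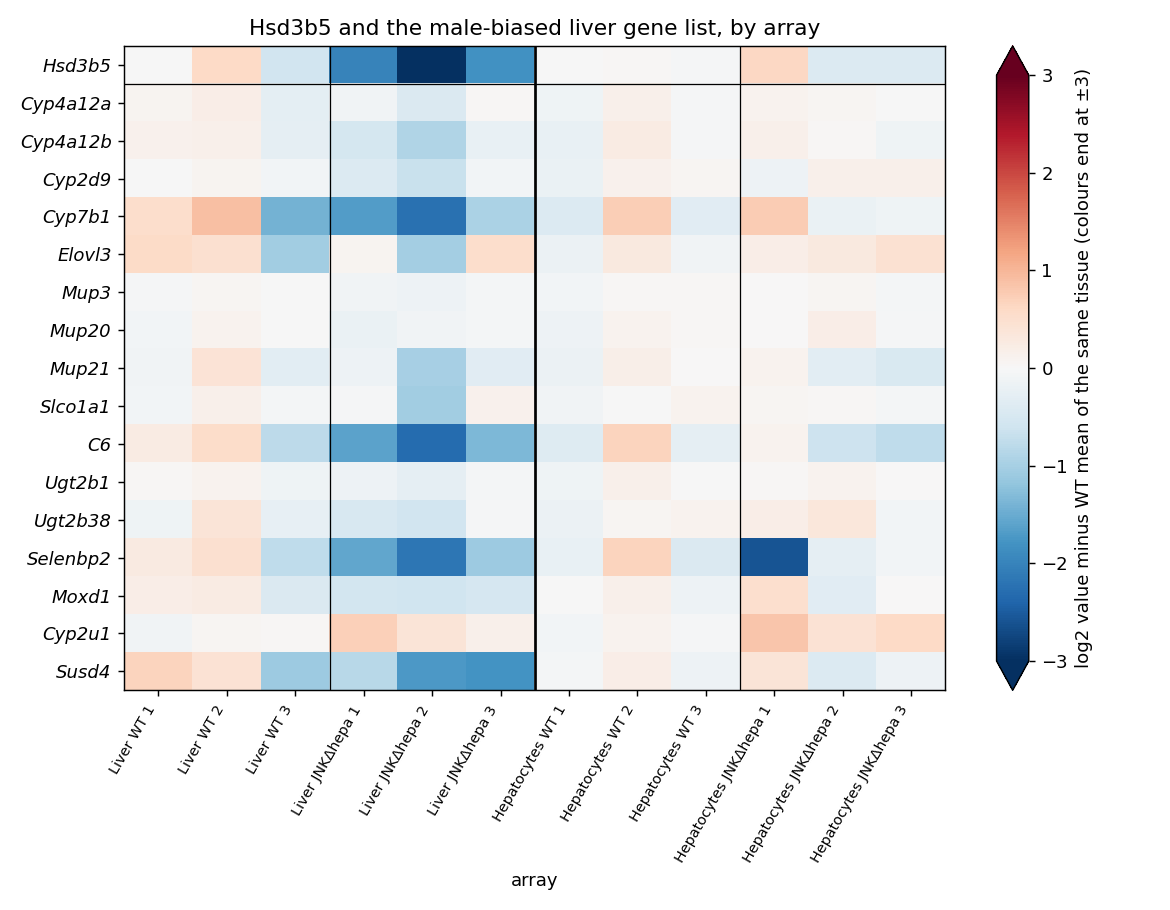
Log2 value of Hsd3b5 (top row) and 16 male-biased liver genes (other rows) on each array (x axis), minus the WT mean of the same tissue, with blue below and red above that mean and colours ending at 3 either way. JNKΔhepa liver replicate 2 has the deepest blue for Hsd3b5 and was the lowest liver for 12 of the 16 other genes, and the hepatocyte columns are paler except for Selenbp2 in JNKΔhepa replicate 1 (7.49).

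Of 15 measured female-biased genes the median change in liver was 0.19, beside 0.02 over all genes, with 10 above 0 and 5 below. In hepatocytes the median was 0.05, with 9 above 0 and 6 below. Limma called 0 there, with 2 at an unadjusted p under 0.05, beside 0.84% and 12.6% of all genes. In liver it called 1, with 4 at an unadjusted p under 0.05, beside 0.925% and 12.5%. That liver gene was Hao2, an oxidase of hydroxy acids, at 0.53 (SE 0.113, limma adjusted p = 0.0478). Hao2 read below the array median on all 12 arrays, so the size is not exact. The call was lost without any one mouse other than JNKΔhepa replicate 1 (limma adjusted p up to 0.223). Cyp2b9, a cytochrome P450 of this list, went the other way. It read 4.76 to 6.13 in WT and 2.76 to 3.36 in JNKΔhepa hepatocytes. Those arrays did not overlap, as for 7.32% of all genes in that direction, and limma did not call it. In liver Cyp2b9 read 8.25 in WT replicate 3 and 2.69 to 3.02 on the other arrays, which were below the array median. Of 15 growth hormone signalling genes, limma called 0 in liver, with 5 at an unadjusted p under 0.05 (beside 0.925% and 12.5% of all genes), and 1 in hepatocytes, with 4 (beside 0.84% and 12.6%). That gene was Socs2, an inhibitor of growth hormone receptor signalling, which read 7.14, 6.91 and 6.77 in WT against 9.53, 8.95 and 8.97 in JNKΔhepa hepatocytes, and rose by 2.21 (4.64-fold, SE 0.4, limma adjusted p = 0.022). The Socs2 call was lost without WT replicate 1 or 3 or without JNKΔhepa replicate 1 (limma adjusted p up to 0.116). In liver Socs2 read 8.44, 9.25 and 8.53 in WT against 7.91, 7.48 and 9.51 in JNKΔhepa, which overlapped.

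Receptors and glucocorticoid targets lay at the background. Limma called 0 of 17 steroid and orphan receptors and 0 of 13 glucocorticoid targets in either tissue, beside 0.925% of all genes in liver and 0.84% in hepatocytes. At an unadjusted p under 0.05 there were 2 and 1 in liver and 1 and 1 in hepatocytes, beside 12.5% and 12.6% of all genes. The smallest p among the receptors was that of Hnf4a, a nuclear receptor of hepatocytes, at 0.31 in hepatocytes (limma adjusted p = 0.214). Among the targets it was that of Dusp1, a phosphatase that inactivates MAP kinases, which read 9.93 to 10.46 in WT and 8.75 to 9.34 in JNKΔhepa hepatocytes (-0.995, SE 0.246, limma adjusted p = 0.0899). For cholangiocyte and lymphocyte markers limma called 0 of 6 and 0 of 9 in either tissue. At an unadjusted p under 0.05 there were 1 and 3 in liver, beside 12.5% of all genes, and 1 and 0 in hepatocytes, beside 12.6%. The smallest p values were those of Krt19, a bile duct keratin, at 4.29 to 4.54 in WT and 3.78 to 4.28 in JNKΔhepa livers, 2 of the latter below the array median (limma adjusted p = 0.264), and of Cd79b, a subunit of the B cell receptor, at 0.48 in liver (limma adjusted p = 0.19).

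The neighbours of the Hsd3b cluster were looked at after the values had been seen. Of 10 flanking genes in the RefSeq order, 5 on each side, 7 had a probe set of their own. Wars2, a mitochondrial tryptophanyl-tRNA synthetase, lies 2 genes beyond Hsd3b1 and rose in both tissues. WT livers read 5.83, 5.74 and 5.80 and JNKΔhepa livers 6.39, 6.43 and 6.42 (0.62, SE 0.084, limma adjusted p = 0.00383). WT hepatocytes read 5.27, 5.25 and 5.06 and JNKΔhepa hepatocytes 5.75, 5.89 and 5.71 (0.59, SE 0.084, limma adjusted p = 0.00464, lost without JNKΔhepa replicate 2 at 0.0578 and in a fit of the 6 hepatocyte arrays at 0.0636). Hao2, described above, lies between Hsd3b1 and Wars2. Hsd3b6 and Hsd3b1, the cluster members beyond Hsd3b3, read below the array median on every array, at 2.63 to 3.33 and 2.01 to 2.28 in liver. The other 5 measured neighbours, Reg4, Phgdh, Zfp697, Tbx15 and Spag17, differed by -0.24 to 0.21 with no call by limma, and each read below the array median on most arrays, so these sizes are not exact.

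**Figure D4:**
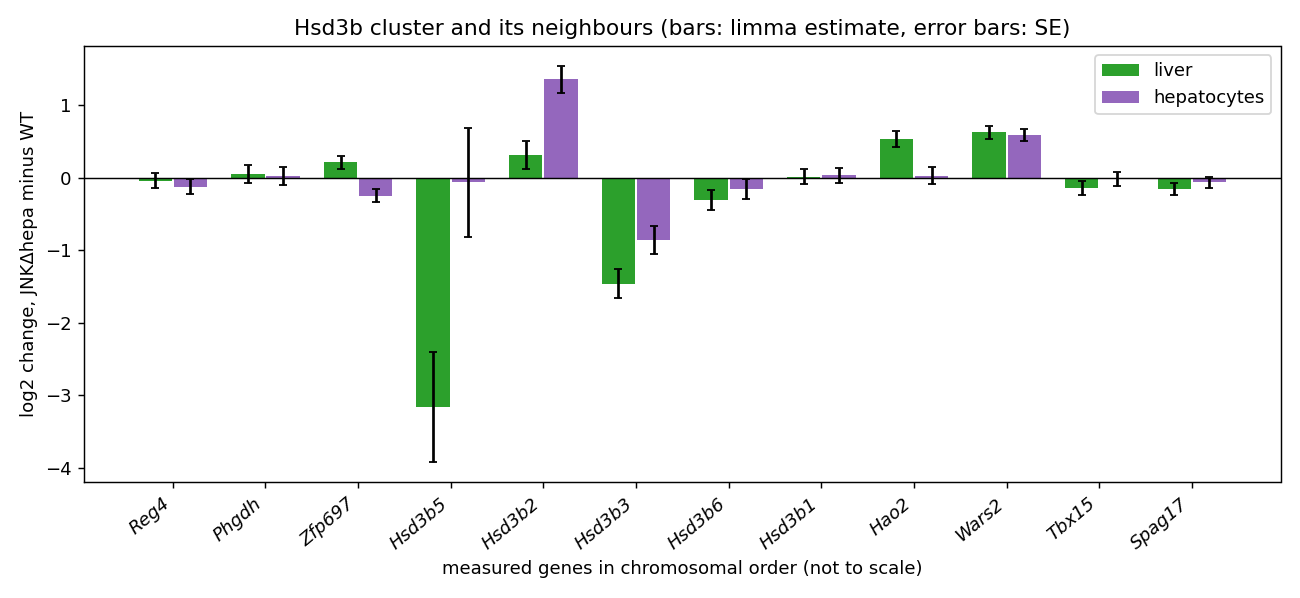
Log2 change from WT to JNKΔhepa (y axis; bars from 0 are limma estimates and error bars are SE) in liver (green) and hepatocytes (purple) for the Hsd3b genes and measured neighbours in chromosomal order (x axis, not to scale). Hsd3b5 (-3.16 in liver) and Hsd3b3 (-1.46 in liver, -0.86 in hepatocytes) lie below 0, with Hsd3b2 between them at 0.31 and 1.35, and Wars2 is at 0.62 and 0.59.

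The genes whose values were most like each enzyme over the 12 arrays, after subtracting each tissue's mean, are given as a description. For Hsd3b3 they were Igf1, the insulin-like growth factor made by liver (Pearson r 0.970), and Gpc1, a glypican (r 0.953). Igf1 read 11.23, 11.34 and 11.24 in WT against 10.97, 10.97 and 10.96 in JNKΔhepa livers, and 11.02 was its highest value in JNKΔhepa hepatocytes, in replicate 1, where Hsd3b3 was highest too. For Hsd3b2 they were Slc39a14, a zinc and iron transporter (r 0.953), and Pwp2, a ribosome biogenesis factor (r 0.913), and both also ranked first by Spearman's rho (0.930 each). Slc39a14 read 8.38 to 8.55 in WT and 8.91 to 8.99 in JNKΔhepa hepatocytes.

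For Cyp17a1 the closest genes were Olfr297 (r 0.918), an olfactory receptor gene read below the array median throughout, and Cox20 (r 0.898), an assembly factor of cytochrome c oxidase. For Hsd3b5 they were Mmp16 (r 0.970), also below the array median throughout, and Upk3b (r 0.935), below it on 7 of 12 arrays, and by Spearman's rho they were C6 and Mlf1 (0.944 each). Hsd11b1 was closest to Cmtm8 (r 0.925) and Poldip3 (r 0.924), and Hsd17b2 to Snrpd3 (r 0.932) and Arv1 (r 0.916). Akr1c6 was closest to Ctla4 (r 0.919) and Nkx2-3 (r 0.911), both below the array median throughout. The arrays share groups and normalisation, so these correlations carry no test.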

How the data were processed

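Per the submitters' processing notes, the authors used RMA; the deposited values are log2, 35556 probe sets on 12 arrays, with no detection calls. No source used here gives the genome build or the definition of the probe sets. The platform annotation names 1 gene for 21218 probe sets, several for 1881 and none here for 12457; the probe set with the highest mean stood for each of 18820 genes. The 4 group means were fitted with limma 3.58.1 (R 4.3.3; 8 residual and 4.76 prior degrees of freedom), which was tested on simulated data. Tests were two-sided. RefSeq (GRCm38.p6) gave promoters, aligned with biopython 1.88, and gene order.

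Genes were named by rule: the enzymes, Mapk8 and Mapk9, from each list the called genes (up to 5) or the smallest p, and per enzyme the 2 genes with the highest r, leaving out predicted genes, clones and microRNAs. Fkbp5, Mt2, Sgk1, Tat, Cyp2b9 and the neighbours were chosen after their values were seen. The enzymes and lists were chosen with earlier results of these data known. Replicates of a genotype are different mice. A liver and a hepatocyte sample share a mouse, per the labels' mouse numbers; deviations from group means correlated at -0.013 to 0.098 within a mouse and at -0.12 to 0.112 between mice of the same replicate number. The number of arrays limits the precision. The alternatives were joint quantile normalisation, leaving out dim genes, averaging probe sets, leaving out each mouse, the replicate or mouse as a block, each tissue alone, and Spearman correlation.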

Additional observations from a re-analysis of the deposited data

How the results depend on the processing

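The number of genes called by limma, 174 in liver, 158 in hepatocytes and 2 for the interaction, ranged from 60 to 175, from 50 to 354 and from 1 to 9 when each mouse was left out in turn. With the replicate number as a block, liver gave 110 calls, and the 6 hepatocyte arrays alone gave 77. With the block, the calls of C6, Hao2 and Mapk8 in liver were lost and Cdh5 in hepatocytes passed. With the mouse as a random block, an alternative chosen after seeing the data, no call changed among the 78 results compared, and counts stayed within 1.5 times. Tissue calls, 16231 in WT and 16282 in JNKΔhepa, became 5336 and 5619 after joint quantile normalisation, and 9626 and 9778 when the genes below the array median in all 4 groups were left out, with 10786 genes kept, where Akr1c18 and Cdh5 passed in hepatocytes. Joint normalisation reversed the tissue difference of Hsd3b2 in JNKΔhepa (0.552), Hsd3b3 in WT (0.248), Hsd3b5 in WT (0.11), Hsd11b1 in WT (0.0618) and JNKΔhepa (0.0121), and Hsd17b2 in WT (0.386) and JNKΔhepa (0.296), and the call of Hao2 in liver was lost. The cause was not tested. In fits of 1 tissue, the calls of C6, Hao2 and Mapk8 in liver and of C1qb, Ecm1 and Wars2 in hepatocytes were lost. Leaving out a mouse turned the sign of small differences, which ranged from -0.33 to 0.34 for Hsd3b2 between JNKΔhepa tissues, from -0.41 to 0.11 for Hsd3b5 and from -0.0523 to 0.0479 for Akr1c6 in hepatocytes, from -0.0529 to 0.033 for the interaction of Hsd11b1, from -0.13 to 0.17 for Ugt2b37 in hepatocytes and from -0.117 to 0.0237 for Cdh5 in liver. Averaging probe sets changed no call. No enzyme had another probe set of its own to try. By Spearman's rho, 2 of 2 closest genes were shared for Hsd3b2, 1 of 2 for Hsd17b2 and Akr1c6, and 0 for the other 4 enzymes. Array values without detection calls limit what can be said of genes below the array median.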
